A study of Mus musculus with 4 samples.

Results

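Voltage-gated sodium channels are built from 1 large alpha subunit, which forms the pore and senses voltage, and smaller beta subunits that set its gating and its place in the membrane. The genes described here are Scn3a, Scn7a and Scn9a, taken by name from the 300 genes of a custom Xenium panel, which images RNA in tissue sections and counts each decoded molecule as a punctum. Scn3a encodes Nav1.3, a channel best known from developing neurons, and Scn9a encodes Nav1.7, known from pain-sensing neurons, where it amplifies small depolarizations. Scn7a encodes Nax, an atypical channel known as a sensor of extracellular sodium rather than as a carrier of action potentials. In retinal ganglion cells (RGCs), the neurons whose axons form the optic nerve, spikes are commonly ascribed to Nav1.1, Nav1.2 and Nav1.6. Of these, the panel holds Scn1a (Nav1.1) and Scn8a (Nav1.6), so that 5 of its 300 genes encode alpha subunits. It also holds genes of beta subunits, among them Scn2b, Scn3b and Scn4b. The RefSeq annotation of GRCm38.p6 places Scn9a between Scn1a and Scn7a, and Scn3a beside Scn2a.

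The tissue was retina of wild-type C57BL/6 mice without manipulation, sectioned en face, in the plane of the retina, at a thickness of 20 µm. The table held 131379 cells, all called RGCs and each given by the authors to 1 of 45 types, from 5 retinas, 41 sections and 8 slides. Retinas held 13127 to 41048 cells with a median of 285 to 326 puncta per cell, every cell held at least 100 puncta, and no cell name occurred more than once. There is 1 group, so that all comparisons lie within retinas, and whether the retinas came from separate animals is not given: the p-values cover the spread among these retinas, which may be technical. Retinas 4 and 5 share a slide, as do retinas 3 and 5. Levels are given as puncta of a gene per 1000 puncta of all 300 genes in the same cells, with the SD over 5 retinas. The number of puncta per transcript depends on a gene's probes, so levels of different genes are not set against each other. Of the 7 RGC markers listed, 4 are on the panel (Rbpms, Pou4f2, Slc17a6 and Nefh), and their summed level ran from 43.9 per 1000 in 44_Novel to 96.4 in 35_Novel. Type 44_Novel, the rarest with 314 cells, also had the highest summed level of Müller glia markers (49.6 per 1000 against a median type of 10.0), of microglia markers (8.90 against 0.139) and of Cdh5, the endothelial marker (12.1 against 0.185).

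Over all RGCs, Scn3a gave 191228 puncta, Scn7a 164299 and Scn9a 27906. Scn3a stood at 4.80, 4.47, 4.23, 4.51 and 4.17 puncta per 1000 in retinas 1 to 5, a mean of 4.43 ± 0.25 (SD, n = 5). Scn7a stood at 4.08, 3.62, 4.22, 3.92 and 3.72, a mean of 3.91 ± 0.25. Scn9a stood at 0.640, 0.714, 0.654, 0.656 and 0.566, a mean of 0.646 ± 0.053. The retinas thus lay close together for each gene, and none was the highest or the lowest for every gene. At least 1 punctum was found in 64.0% ± 2.1 of cells for Scn3a, 44.1% ± 1.5 for Scn7a and 16.2% ± 0.89 for Scn9a, and after each cell was thinned to 100 puncta in 34.2%, 25.2% and 6.27%. Scn7a was missing from 56.3% of cells, yet 11050 cells held 5 puncta or more and a single cell held up to 32. Scn3a was missing from 35.4% of cells and 7007 cells reached 5 puncta, and Scn9a was missing from 83.5% and 86 cells did.

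The type levels that follow are a description with no test, because the authors' types can rest on these same genes. Across the 45 types the level of Scn7a ranged 32.3-fold, that of Scn9a 28.1-fold and that of Scn3a 6.20-fold. The first 2 rest on low levels at the bottom, 0.378 for Scn7a and 0.0938 for Scn9a. No cell type known to lack these genes was measured, so the part of background in them is not known. By the SD over types of log2(puncta per 1000 + 0.1), Scn7a was the 15th most variable of the 300 panel genes, Scn9a the 68th and Scn3a the 120th. Scn1a and Scn8a came 215th and 232nd. The added 0.1 is above the lowest Scn9a level (0.0938) and so narrows the spread of genes with low levels. The order of types was much the same in each retina, with Spearman correlations between retinas of 0.962 to 0.990 for Scn3a, 0.962 to 0.985 for Scn7a and 0.933 to 0.986 for Scn9a over the 45 types, which share the same libraries. The plot of levels by type shows a gradual descent for each gene. Next neighbours in the order had overlapping ranges over the retinas in all 44 cases for Scn3a and Scn9a and in 43 of 44 for Scn7a, where 15_Novel (2.12 ± 0.21) and 41_AlphaONT (1.70 ± 0.18) lay apart.

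**Figure D1:**
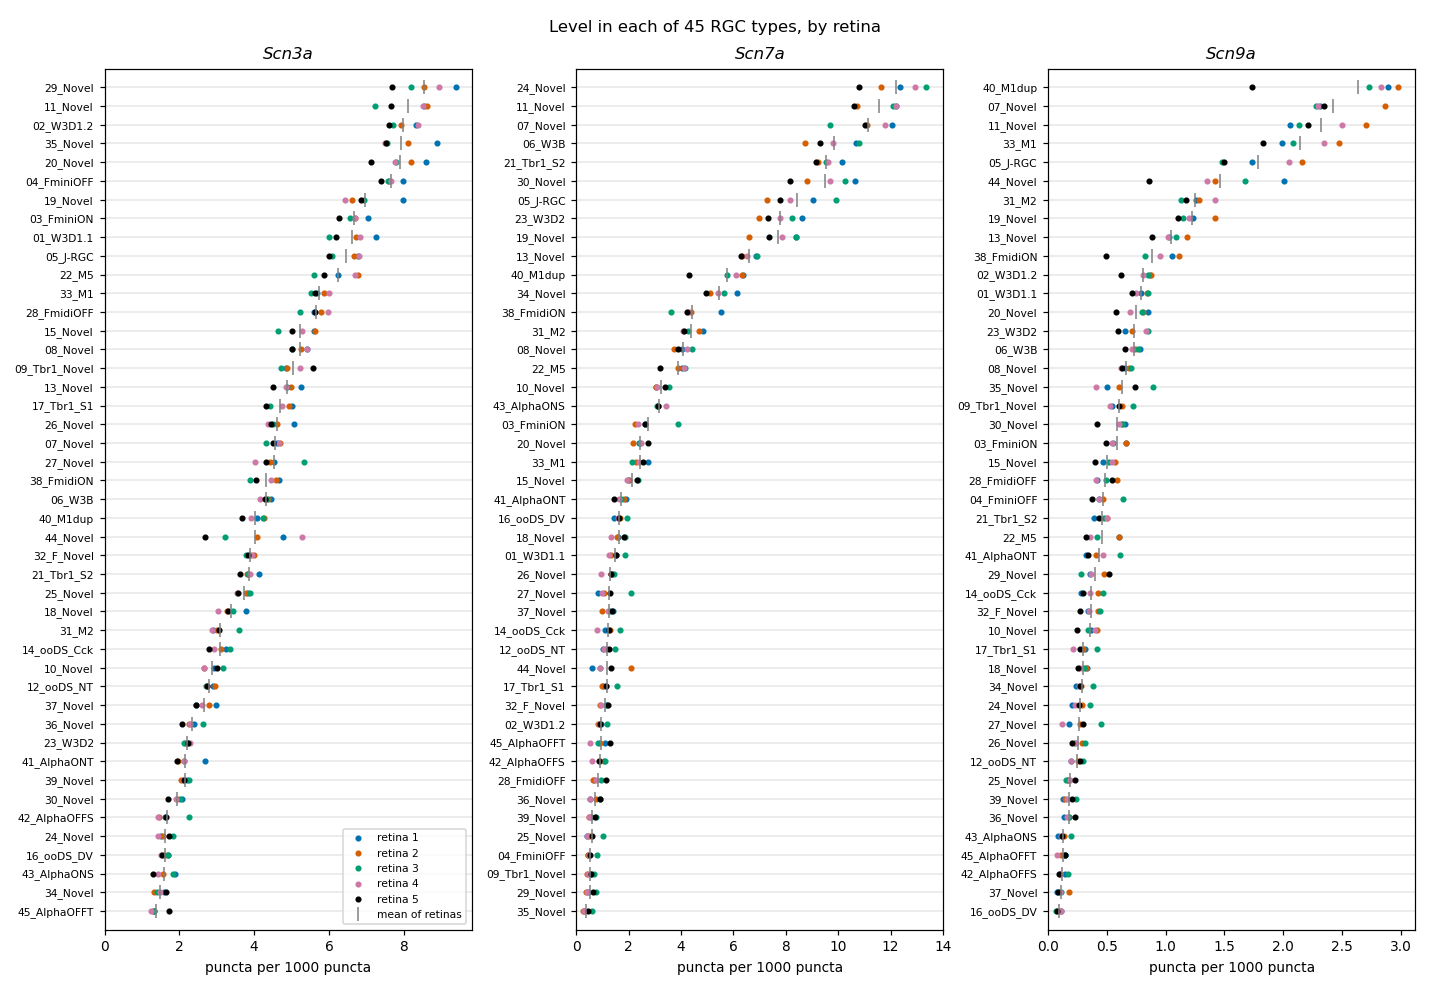
Level of Scn3a, Scn7a and Scn9a (x axis, puncta per 1000 puncta) in each of the 45 RGC types, ordered by level, with a point per retina and a grey tick at the mean of 5 retinas. Scn3a descends from 8.55 in 29_Novel to 1.38 in 45_AlphaOFFT, Scn7a from 12.2 in 24_Novel to 0.378 in 35_Novel, and Scn9a from 2.63 in 40_M1dup to 0.0938 in 16_ooDS_DV.

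Scn3a was highest in 29_Novel, with 9.41, 8.53, 8.21, 8.94 and 7.68 puncta per 1000 in retinas 1 to 5. It was followed by 11_Novel (8.12 ± 0.62), 02_W3D1.2 (7.99 ± 0.35), 35_Novel (7.92 ± 0.60), 20_Novel (7.89 ± 0.55) and 04_FminiOFF (7.65 ± 0.22). These 6 types overlapped each other as neighbours, and 11_Novel exceeded 29_Novel in retina 2. The lowest Scn3a level was in 45_AlphaOFFT, with 1.33, 1.31, 1.31, 1.24 and 1.72, and every retina of 29_Novel lay above every retina of that type. Above it came 34_Novel (1.48 ± 0.13), 43_AlphaONS (1.60 ± 0.25), 16_ooDS_DV (1.61 ± 0.092), 24_Novel (1.61 ± 0.17) and 42_AlphaOFFS (1.67 ± 0.34). Between these ends, 19_Novel (6.96), 03_FminiON (6.66), 01_W3D1.1 (6.61), 05_J-RGC (6.47) and 22_M5 (6.24) stood above 6 puncta per 1000. From 33_M1 at 5.74 to 40_M1dup at 4.03 lay 13 types, and from 44_Novel at 4.01 to 30_Novel at 1.93 a further 15. At least 1 Scn3a punctum was found in 86.3% of 29_Novel cells and 36.7% of 45_AlphaOFFT cells.

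Scn7a was highest in 24_Novel, with 12.3, 11.6, 13.4, 12.9 and 10.8 puncta per 1000 in retinas 1 to 5, and 90.2% of its cells held a punctum. Next came 11_Novel (11.6 ± 0.82), 07_Novel (11.1 ± 0.92), 06_W3B (9.86 ± 0.89), 21_Tbr1_S2 (9.53 ± 0.40) and 30_Novel (9.51 ± 1.0). In retina 5 the level of 07_Novel exceeded that of 24_Novel. The lowest type, 35_Novel, had 0.305, 0.259, 0.593, 0.293 and 0.442, and was the lowest in every retina. It was followed upwards by 29_Novel (0.515 ± 0.17), 09_Tbr1_Novel (0.527 ± 0.097), 04_FminiOFF (0.535 ± 0.15), 25_Novel (0.583 ± 0.25) and 39_Novel (0.599 ± 0.13). In these 6 types 9.98% to 18.6% of cells held a punctum, the level closest to a background in these data, since no cell type known to lack the gene was measured. Scn7a thus divided the types more sharply than Scn3a did: 16 types lay at least 2-fold above the median type (1.70) and 8 at least 2-fold below it, against 0 and 8 types for Scn3a.

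Scn9a was highest in 40_M1dup, a type named after the M1 class of intrinsically photosensitive RGCs (ipRGCs), which hold the photopigment melanopsin. Its levels were 2.89, 2.98, 2.73, 2.83 and 1.74 in retinas 1 to 5, so that retina 5 lay well below the others. The other high types were 07_Novel (2.42 ± 0.25), 11_Novel (2.32 ± 0.27), 33_M1 (2.15 ± 0.27), 05_J-RGC (1.78 ± 0.31) and 44_Novel (1.46 ± 0.42). At the low end, 16_ooDS_DV, an ON-OFF direction-selective type, had 0.108, 0.105, 0.0711, 0.108 and 0.0766, with a punctum in 3.32% of cells against 51.1% in 40_M1dup. Above it came 37_Novel (0.111 ± 0.041), 42_AlphaOFFS (0.122 ± 0.032), 45_AlphaOFFT (0.124 ± 0.032), 43_AlphaONS (0.129 ± 0.039) and 36_Novel (0.176 ± 0.035). For Scn9a, 9 types lay at least 2-fold above the median type (0.468) and 8 at least 2-fold below it. Over the 45 types its level went with the summed level of Müller glia markers (Spearman 0.68), which was 18.9 per 1000 in 33_M1 and 13.3 in 40_M1dup but 9.38 in 05_J-RGC. For Scn3a the correlation with Müller glia markers was 0.51 and for Scn7a 0.14 (Spearman). Scn9a also went with the summed level of microglia markers (Spearman 0.53), which was 1.98 per 1000 in 33_M1 and 0.764 in 40_M1dup but 0.137 in 05_J-RGC, against a median type of 0.139. Cdh5 stood at 2.19 per 1000 in 07_Novel, which is high in Scn7a too, and at 1.25 in 33_M1, but at 0.177 in 11_Novel, against a median type of 0.185. The part of these markers in the order was not tested.

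Types that were alike in one gene could be opposite in another, as the plots of gene pairs by type show. Type 24_Novel had the highest Scn7a level but the 41st Scn3a level of 45. The reverse held for 35_Novel and 29_Novel, which were the lowest for Scn7a and among the 4 highest for Scn3a. Type 11_Novel was among the 3 highest for all 3 genes. Scn3a and Scn9a went together over types (Pearson r 0.57 on log2 levels, Spearman 0.60, 45 types), as did Scn7a and Scn9a (r 0.50, Spearman 0.45), while Scn3a and Scn7a did not (r -0.07, Spearman -0.08). These are descriptions over types that share libraries, and the levels of all genes sum to the same total.

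**Figure D2:**
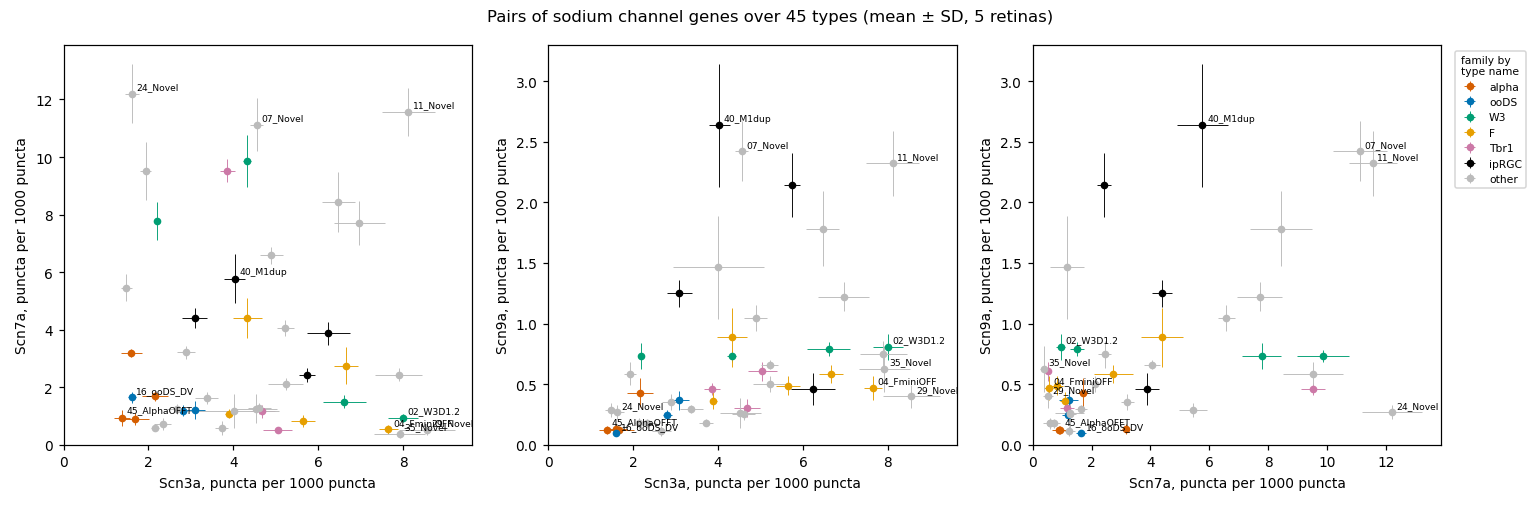
Levels of each pair of genes over the 45 types (both axes in puncta per 1000 puncta), with a point per type at the mean of 5 retinas, bars for the SD and colours for families read from the type names. 24_Novel combines 12.2 for Scn7a with 1.61 for Scn3a, 29_Novel combines 0.515 with 8.55, and 11_Novel is high in all 3 genes.

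Types were also pooled into families by their names. The 4 alpha types, large cells with fast axons, were all among the 9 lowest types for Scn3a. Their pooled Scn3a levels were 1.73, 1.48, 1.85, 1.43 and 1.59 in retinas 1 to 5, or 0.349 times the level of all other RGCs. Pooled, they reached 0.421 times the rest for Scn7a and 0.231 times for Scn9a. In Scn7a they split, however, from 0.903 in 42_AlphaOFFS to 3.18 in 43_AlphaONS, which lay above the median type (1.70), and in Scn9a 41_AlphaONT (0.431) stood above the other alpha types. The 3 ooDS types, which signal the direction of motion, stood, pooled, at 0.495, 0.331 and 0.291 times the rest for Scn3a, Scn7a and Scn9a. In both families the pooled level lay below the rest in each retina and for each gene. The ipRGC types (22_M5, 31_M2, 33_M1 and 40_M1dup) stood at 1.46 ± 0.14 puncta per 1000 for Scn9a against 0.612 ± 0.052 in the rest, or 2.39 times, in all 5 retinas. For Scn3a and Scn7a they stood at 1.03 times the rest, and within the family Scn9a ran from 0.458 in 22_M5 to 2.63 in 40_M1dup. The 5 F types, which express Foxp2, stood, pooled, at 1.46 times the rest for Scn3a and 0.420 times for Scn7a. Their types differed, from 3.89 in 32_F_Novel to 7.65 in 04_FminiOFF for Scn3a and from 0.535 in 04_FminiOFF to 4.40 in 38_FmidiON for Scn7a. The 4 W3 types, small cells of dense coverage, stood, pooled, at 1.48 times the rest for Scn3a and 1.25 times for Scn9a. In Scn3a they ran from 2.19 in 23_W3D2 and 4.32 in 06_W3B to 7.99 in 02_W3D1.2. In Scn7a they ran from 0.944 in 02_W3D1.2 to 9.86 in 06_W3B. The 3 Tbr1 types split in Scn7a too, from 0.527 in 09_Tbr1_Novel to 9.53 in 21_Tbr1_S2. Larger types tended to hold less Scn3a and Scn9a per 1000 puncta: Spearman correlations with the mean cell volume of a type were -0.74 for Scn3a, -0.60 for Scn9a and 0.08 for Scn7a. Orders by puncta per cell stayed close to those per 1000, with Spearman correlations of 0.970, 0.981 and 0.985.

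By likeness over the 45 types (Pearson r on log2 levels, means of 5 retinas), a beta subunit headed the list for both Scn3a and Scn9a. The places depend on the unit. By puncta per cell, Scn3b stayed 1st for Scn3a (0.71) but came 2nd for Scn9a (0.64), after Qpct (0.67). Rbpms then came 9th for Scn3a (0.46) and Grik5 8th for Scn9a (0.51). Scn3a was most like Scn3b, the beta3 subunit (r 0.78, Spearman 0.78), then Grik5, a kainate receptor subunit (0.78), Cacng5, a member of the calcium channel gamma family (0.74), and Rbpms, an RNA-binding protein and RGC marker (0.70). It was least like the synaptotagmin Syt2 (-0.80), Scn4b, the beta4 subunit (-0.74), and Sh3bgr (-0.74). Scn9a was most like Scn3b (0.71), Qpct, a glutaminyl cyclase (0.71), Fxyd6, which modulates the Na,K-ATPase (0.67), and Grik5 (0.65). Among the genes least like it was the fast potassium channel gene Kcnc1 (-0.72). For Scn7a no gene came close to these values. Its most like genes were Scn9a (0.50), Gabrg3, a GABA-A receptor subunit (0.47), Anxa2 (0.46) and the potassium channel partner Kcnip1 (0.46), and its least like genes were Shisa8 (-0.46), the cadherin Cdh8 (-0.46) and Gabrg1 (-0.46). The other alpha genes ran against Scn9a, Scn8a with r -0.61 and Scn1a with -0.48.

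Within types the sharpest pattern was in 03_FminiON, a type of small Foxp2-expressing cells (6996 cells), where the level of Scn7a changed with position. This type was singled out after its values were seen. Scn7a stood there at 2.61, 2.26, 3.86, 2.35 and 2.63 puncta per 1000 in retinas 1 to 5, a middling level among types. Its spread over cells was the widest of all types for Scn7a, however, with a variance of 1.71 times the mean in thinned cells. Where Y was above 0, Scn7a reached 3.84, 4.10 and 4.51 puncta per 1000 in retinas 1, 2 and 4, against 1.58, 1.17 and 1.2 where Y was below 0. In retina 3 the difference lay along X, with 4.72 below 0 and 2.37 above it. In retina 5 it lay along both axes, with 3.99 at X above 0 against 1.51, and 3.68 at Y below 0 against 2.04. X and Y have no anatomical direction in the labels, and the high side thus pointed in different directions in different retinas. Measured as the length of the vector of the X and Y log2 differences, the change was 1.01 or more in each retina for 03_FminiON. No other of the 34 types with at least 50 cells on each side came above 0.437 in all retinas for Scn7a. This length is never negative and grows with counting error in thin types, so it is given as a description.

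In 8 sectors of 45 degrees, counted from the positive X axis towards positive Y, Scn7a in 03_FminiON was highest at 7.17 puncta per 1000 in the sector from 45 to 90 degrees in retina 1 (129 cells). In retina 2 it peaked at 6.72 from 90 to 135 degrees (146 cells), and in retina 4 at 7.33 in the same sector (70 cells). Retina 3 peaked at 6.78 from 135 to 180 degrees (110 cells) and retina 5 at 5.26 from 270 to 315 degrees (86 cells). The lowest sector held 1.31, 0.952, 1.57, 0.801 and 1.04 in retinas 1 to 5, where the last rests on 9 cells. Highest and lowest sectors differed by 5.46, 7.05, 4.31, 9.15 and 5.05 times. For Scn3a the same cells gave ratios between sectors of 1.21 to 1.73, and for Scn9a, with few puncta per sector, of up to 6.45.

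**Figure D3:**
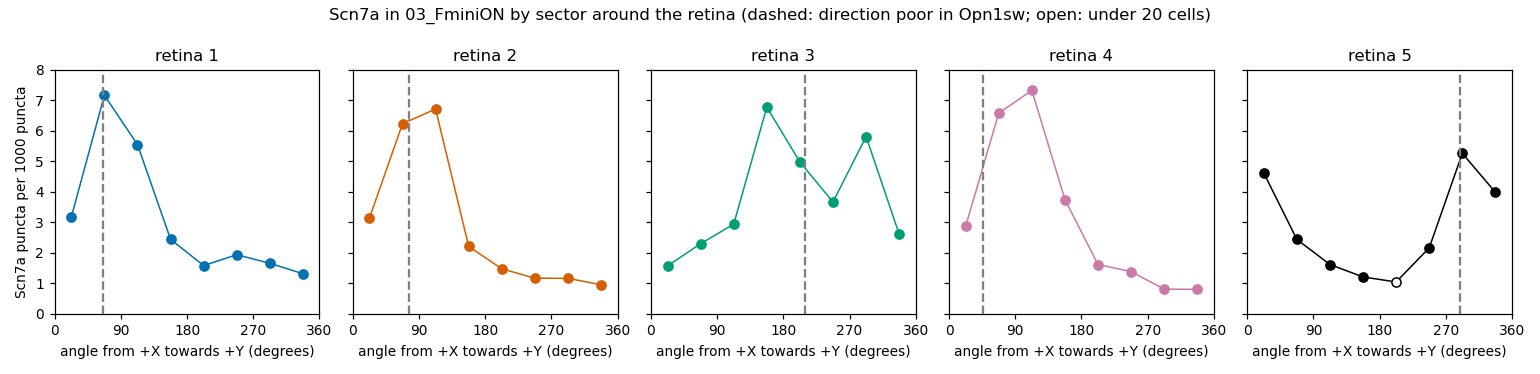
Scn7a in 03_FminiON cells (y axis, puncta per 1000 puncta) in 8 sectors around the centre of each retina (x axis, degrees from positive X towards positive Y), with an open point where a sector held under 20 cells. The dashed line is the direction poorest in Opn1sw, found from cells of all other types. The peak lies at 7.17, 6.72, 6.78, 7.33 and 5.26 in retinas 1 to 5 and at different angles. The dashed line falls inside the peak sector in retinas 1 and 5 only.

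A second gene was therefore used to bring the retinas into one direction. Opn1sw encodes the short-wavelength cone opsin, which in mouse is known to be far more abundant in ventral than in dorsal cones. Its puncta inside RGC outlines (578 to 974 per retina, in cells of all types but 03_FminiON) gave each retina a direction, and each was split through its centre into an Opn1sw-rich and an Opn1sw-poor side. The cone markers Opn1sw and Opn1mw summed to 1.28 per 1000 in 05_J-RGC against a median type of 0.354. The direction was not set at the same mix of types, and the part of that mix in it was not tested. Opn1sw itself was 3.21, 1.51, 1.51, 1.38 and 2.84 times higher on the rich side in retinas 1 to 5, which the split fixes. The direction of the poor side lay at 66.1, 76.8, 210, 46.2 and 289 degrees. It fell inside the sector of the Scn7a peak in retinas 1 and 5 and outside it in retinas 2, 3 and 4. This comparison was added after the data were seen, and Opn1sw was left out of it.

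In 03_FminiON, Scn7a on the Opn1sw-poor side was 3.54, 3.87, 4.67, 3.96 and 3.90 puncta per 1000 in retinas 1 to 5. On the rich side it was 1.67, 1.22, 2.55, 1.58 and 1.68, so that the sides did not overlap. The ratio was 2.12, 3.18, 1.83, 2.50 and 2.32 within retinas. In the edgeR quasi-likelihood test within types, with the retina as a block and Benjamini-Hochberg adjustment over all type-gene pairs, Scn7a was higher on the poor side by a log2 fold change of 1.23 ± 0.10 (SE, adjusted p = 0.00032, 5 of 5 retinas). Of the 9998 type-gene pairs tested, 3.05% were called. By p, Scn7a was the first gene in this type, and 6 genes were called there. The other 5 were Gabrg3 (0.76 ± 0.10), Kcnab1 (0.61 ± 0.13), a potassium channel beta subunit, and the cerebellin Cbln4 (0.61 ± 0.13) on the poor side, and the calcium channel Cacna1i (-0.31 ± 0.05) and Crabp1 (-0.95 ± 0.19), which binds retinoic acid, on the rich side. Scn3a (0.10 ± 0.06, adjusted p = 0.41) and Scn9a (0.04 ± 0.17, adjusted p = 0.94) were not called in 03_FminiON in edgeR. Glial and vascular markers summed to 10.5 to 14.3 per 1000 over the retinas on the poor side of this type and to 10.3 to 14.3 on the rich side. Amacrine markers summed to 33.4 ± 1.3 and 32.1 ± 1.1, and the median depth was 276 ± 24 and 274 ± 15 puncta per cell. The type made up 4.71% ± 0.41 of cells on the poor and 5.46% ± 1.1 on the rich side.

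Across types, edgeR called Scn7a higher on the Opn1sw-poor side in 3 of 36 types and lower in 0, and Scn3a higher in 1 and lower in 1. Scn9a was called in 0 of 36, with 2 types at an unadjusted p under 0.05 in edgeR. After adjustment DESeq2 called Scn9a in 0 types too. These counts are to be read against the 3.05% of 9998 type-gene pairs that edgeR called over the whole panel. In 17_Tbr1_S1, Scn7a was 1.25, 1.29, 1.63, 1.66 and 1.24 puncta per 1000 on the poor side and 0.663, 0.700, 1.41, 0.767 and 1.01 on the rich side. The log2 fold change in edgeR was 0.73 ± 0.14 (adjusted p = 0.012, 5 of 5 retinas), and the call was lost without retina 1, 2 or 4 (adjusted p = 0.065, 0.075 and 0.094). In 23_W3D2 the difference was smaller, 8.38 ± 0.58 against 7.17 ± 0.64, a log2 fold change of 0.25 ± 0.05 (edgeR, adjusted p = 0.025, 5 of 5 retinas). It was not called in DESeq2 (adjusted p = 0.072), nor in edgeR without retina 1, 2 or 5 (0.056, 0.19 and 0.068). Scn3a in 09_Tbr1_Novel, where Scn7a is near its lowest, was 5.24, 5.61, 5.32, 5.99 and 6.52 on the poor side and 4.18, 4.22, 3.73, 4.75 and 4.55 on the rich side. These sides did not overlap, and the log2 fold change was 0.40 ± 0.08 (edgeR, adjusted p = 0.0076, 5 of 5 retinas), with an adjusted p of 0.079 without retina 2. Scn3a in 11_Novel went the other way, 7.52 ± 0.35 on the poor and 8.59 ± 0.84 on the rich side. Here the log2 fold change was -0.22 ± 0.05 (edgeR, adjusted p = 0.022, 5 of 5 retinas), retina 3 had a ratio of 0.987, and without retina 2 or 4 the adjusted p was 0.12 and 0.13. The call of Scn7a in 03_FminiON held without each retina in turn.

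**Figure D4:**
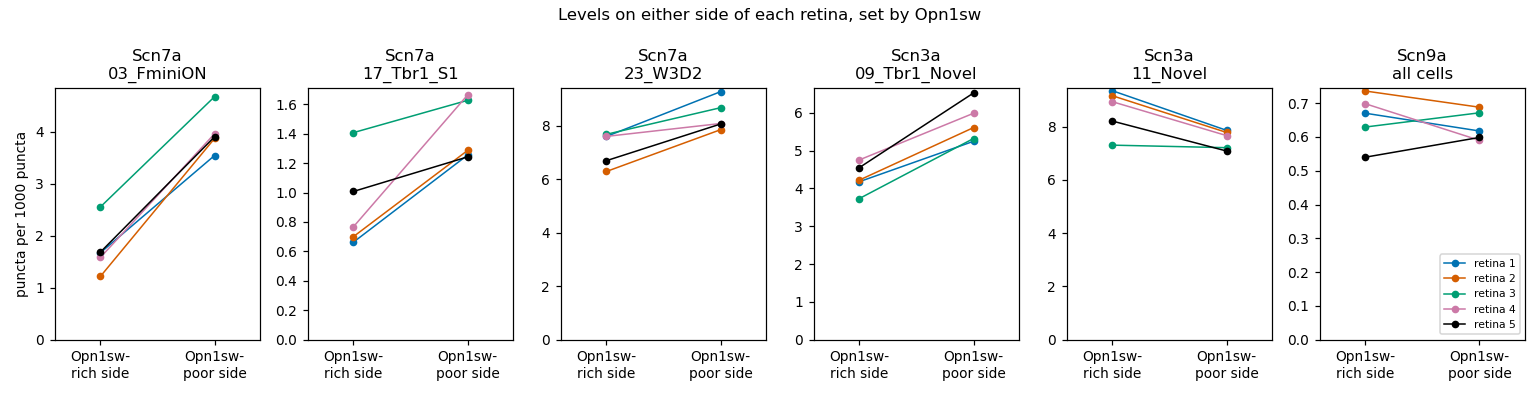
Levels (y axis, puncta per 1000 puncta, from 0) on the Opn1sw-rich and Opn1sw-poor side of each retina, with a line per retina, for the 5 type-gene pairs called in edgeR and for Scn9a over all cells. Scn7a in 03_FminiON rises from 1.22 to 2.55 on the rich side to 3.54 to 4.67 on the poor side, while the lines of Scn9a cross.

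Over all cells the same split left the genes level. Scn7a was 4.03, 3.69, 4.46, 3.72 and 3.84 on the poor side and 4.14, 3.57, 3.90, 4.04 and 3.62 on the rich side, with retinas on both sides of a ratio of 1. The log2 fold changes in edgeR were 0.03 ± 0.05 for Scn7a, 0.02 ± 0.05 for Scn3a and -0.05 ± 0.07 for Scn9a (adjusted p = 0.72, 0.81 and 0.69). Of the 299 genes tested, 5.35% were called, and none of the 3 genes was. Without 03_FminiON the value for Scn7a was -0.01 ± 0.05.

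From centre to periphery none of the 3 genes moved one way in all retinas. The circle was split at a radius of 0.5 of the authors' scaled circle, with 46830 cells inside and 84549 outside. Scn3a was 4.83, 4.50, 4.06, 4.49 and 4.31 puncta per 1000 in the centre and 4.79, 4.45, 4.42, 4.52 and 4.00 in the periphery, so that it was higher in the periphery of retinas 3 and 4 and lower in the others. Scn9a was 0.642, 0.736, 0.579, 0.648 and 0.604 in the centre and 0.640, 0.703, 0.739, 0.659 and 0.521 in the periphery, with retinas 3 and 5 furthest apart and in opposite directions. For Scn7a 4 of 5 retinas were higher in the periphery. The log2 fold changes in edgeR, with the retina as a block, were -0.02 ± 0.04 for Scn3a, 0.02 ± 0.04 for Scn7a and 0.0020 ± 0.08 for Scn9a (adjusted p = 0.78, 0.76 and 0.98). None of the 3 was called, against 6.67% of the 300 panel genes. Along Y the fold changes were -0.03, 0.03 and -0.05 (adjusted p = 0.71, 0.74 and 0.71). Along this axis edgeR called 0% of the panel, with 29 genes at an unadjusted p under 0.05, and DESeq2 called 11. X and Y have no anatomical direction in the labels. The Opn1sw-poor side lay at 66.1, 76.8, 210, 46.2 and 289 degrees in retinas 1 to 5. The same side of X or Y can thus be a different part of the retina in different retinas, and opposite changes can offset each other.

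Along X all 3 genes were lower on the side above 0 in 5 of 5 retinas. Scn7a was 4.27, 3.82, 4.48, 4.29 and 3.73 puncta per 1000 below 0 and 3.93, 3.48, 3.84, 3.59 and 3.70 above 0, with the smallest step in retina 5. Its log2 fold change was -0.14 ± 0.04 (edgeR, adjusted p = 0.046), and it was the one member of the 3 called lower, against 3.67% of the panel called lower and 10% called in all. Without retina 1, 2, 3 or 4 the adjusted p rose to 0.12, 0.15, 0.12 and 0.12, and with no retina block to 0.68. Scn3a went from 4.94, 4.69, 4.54, 4.72 and 4.21 below 0 to 4.70, 4.30, 3.78, 4.32 and 4.13 above 0, or -0.12 ± 0.04 (edgeR, adjusted p = 0.084). DESeq2 called it (adjusted p = 0.0090), and edgeR did without retina 5 (0.046). Scn9a went from 0.679 ± 0.071 to 0.617 ± 0.044, or -0.13 ± 0.04 (edgeR, adjusted p = 0.11, and 0.036 in DESeq2). Among the 9 sodium channel genes of the panel, Scn3b (-0.13 ± 0.03) was also called lower and Scn4b (0.25 ± 0.05) higher along X in edgeR, the genes that stood nearest and near the far end in likeness to Scn3a. The list's median was -0.01, as was that of all 300 genes, and of the 58 channel and excitability genes 1 was higher and 4 lower.

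Once each type was given equal weight on the 2 sides, the X differences were smaller. For Scn7a the log2 differences were -0.10, -0.10, -0.19, -0.20 and 0.07 in retinas 1 to 5, with retina 5 alone above 0, and the mean in limma had an adjusted p of 0.37. Scn3a, at -0.05, -0.07, -0.21, -0.08 and 0.04, and Scn9a, at -0.05, -0.12, -0.04, -0.17 and 0.07, were not called either (limma, adjusted p = 0.46 and 0.54). In these same-mix fits limma called 0% of the panel from centre to periphery, 0% for Y and 0% for X, with 67, 25 and 42 genes at an unadjusted p under 0.05. With the variance following abundance, a fit added after the data were seen, it called 18, 0 and 3 genes, none of them among Scn3a, Scn7a and Scn9a.

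**Figure D5:**
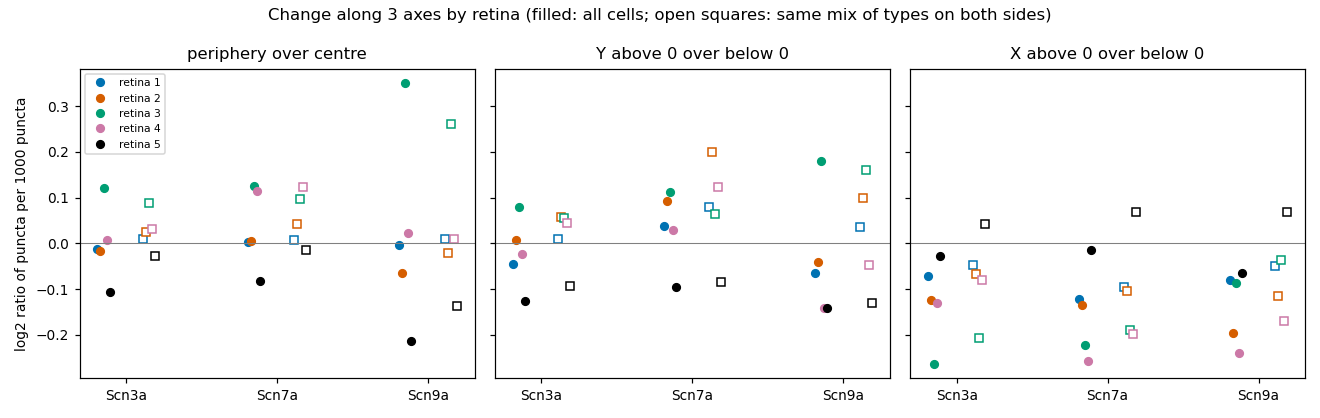
Log2 ratio of levels (y axis) between the 2 sides of each of 3 axes for each gene, with a point per retina, filled for all cells and open for types weighted equally on both sides. Along X the filled points of all 3 genes lie below 0 in all 5 retinas, and with the same mix retina 5 lies above 0 for each gene.

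Within single types, edgeR called none of the 3 genes along the deposited axes. In the radial fit 0 of 37 types were called for Scn3a, 0 of 37 for Scn7a and 0 of 35 for Scn9a, against 2.24% of 10063 type-gene pairs, with 1, 7 and 2 types at an unadjusted p under 0.05. DESeq2 called Scn7a higher in the periphery of 03_FminiON and 21_Tbr1_S2, where edgeR gave log2 fold changes of 0.63 ± 0.14 and 0.19 ± 0.05 (adjusted p = 0.065 each). Along Y no type was called for any of the 3, with 1, 7 and 2 types at an unadjusted p under 0.05. Of all 10039 type-gene pairs edgeR called 0% along Y, with 1136 at an unadjusted p under 0.05 and 28 called in DESeq2. In 03_FminiON the Scn7a log2 ratio along Y was 1.28, 1.81, -0.21, 1.91 and -0.85 in retinas 1 to 5. Opposite signs thus offset each other in that fit. Along X, 0 of 34 types were called for each gene, against 0.293% of 9548 pairs, with 3, 10 and 1 types at an unadjusted p under 0.05. DESeq2 called Scn7a lower in 05_J-RGC and 10_Novel, where edgeR gave -0.23 ± 0.06 and -0.33 ± 0.07 (adjusted p = 0.21 and 0.062). The X values leaned one way: 32 of 34 types lay below 0 for Scn3a (median -0.08), 28 for Scn7a (-0.11) and 28 for Scn9a (-0.13). Types of a retina share its sections, so that this count is not one of independent measurements.

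The genes were next compared cell by cell, in cells thinned to 100 puncta. Scn3a and Scn9a occurred together in 2.64% of cells against 2.15% if independent, and the log2 odds ratio was 0.56, 0.53, 0.45, 0.65 and 0.36 in retinas 1 to 5. For Scn7a and Scn9a it was 0.68, 0.75, 0.89, 0.83 and 0.79. For Scn3a and Scn7a it lay just below 0 in each retina, with a mean of -0.08 ± 0.05. Each of these 3 pairs thus had 1 direction in all 5 retinas, for which an exact permutation of signs (two-sided) gives p = 0.063, the smallest that 5 retinas allow (adjusted 0.063 over the 3 pairs). Held inside types, the odds ratio shrank to 0.19 ± 0.10 for Scn3a with Scn9a and 0.24 ± 0.16 for Scn7a with Scn9a, above 0 in 5 of 5 retinas for both (exact permutation p = 0.063, adjusted 0.094). For Scn3a with Scn7a it was -0.01 ± 0.06 (exact permutation p = 0.75, 2 of 5 retinas above 0). Counted in cells as deposited, which differ in depth, this pair turned to 0.31 over all cells and 0.61 inside types. The part of depth in this turn was not tested.

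Inside types, cells with a member were also compared with cells without one for all other genes (limma on 5 log2 ratios, thinned cells, the same mix of types). Scn9a was called higher in cells with Scn3a (0.17 ± 0.03) and in cells with Scn7a (0.21 ± 0.06). Scn3a (0.17 ± 0.03) and Scn7a (0.14 ± 0.04) were called higher in cells with Scn9a. Between Scn3a and Scn7a no difference was called (-0.0046 ± 0.02 with Scn3a and 0.01 ± 0.02 with Scn7a). These pairs are those of the odds ratios above, in the same thinned cells and read from either gene. They are therefore not separate measurements. Of the beta subunits, Scn3b was called higher with each of the 3 genes (0.15 ± 0.02 with Scn3a, 0.10 ± 0.02 with Scn7a and 0.17 ± 0.03 with Scn9a). Scn4b was called lower with Scn3a (-0.28 ± 0.02) and Scn7a (-0.23 ± 0.04), and Scn2b lower with Scn7a (-0.18 ± 0.05). Of the other alpha genes, Scn8a was called slightly higher with Scn3a (0.06 ± 0.02) and Scn7a (0.07 ± 0.02), and Scn1a with none. By count, 3 of the 8 other sodium channel genes were higher and 2 lower with Scn3a, 3 and 2 of 8 with Scn7a, and 3 and 1 of 7 with Scn9a. Calls were common over the whole panel in these fits, 60.3% of 272 genes with Scn3a, 55.2% of 268 with Scn7a and 30.3% of 201 with Scn9a, so that these counts are to be read against a high background.

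The largest increases with Scn3a were in Slc17a8, a vesicular glutamate transporter (0.32 ± 0.04), Opn4, which encodes melanopsin (0.25 ± 0.03), the glutamate receptor gene Gria1 (0.18 ± 0.02), the transcription factor gene Onecut1 (0.17 ± 0.03) and Scn9a. With Scn7a they were in the transcription factor gene Tbx20 (0.47 ± 0.04), Gabrg3 (0.36 ± 0.03), Opn4 (0.32 ± 0.06), the collagen gene Col9a1 (0.31 ± 0.06) and the calcium channel gene Cacna1e (0.24 ± 0.05). With Scn9a they were in Opn4 (0.65 ± 0.08), Zcchc12 (0.48 ± 0.09), Tbx20 (0.40 ± 0.06), the transcription factor gene Eomes, or Tbr2, which marks ipRGCs (0.30 ± 0.06), and Qpct (0.23 ± 0.04). Opn4 was thus higher with each of the 3 genes inside types, in 5 of 5 retinas, although with Scn7a the call was lost (0.22, limma, adjusted p = 0.086) without the cells highest in glial and vascular markers. Gabrg3 appeared beside Scn7a over types, inside types and in the position change of 03_FminiON, 3 readings of the same cells. Over all cells, however, Gabrg3 leaned to the Opn1sw-rich side and was not called (-0.09 ± 0.04, edgeR, adjusted p = 0.31). Without 03_FminiON it was -0.11 ± 0.05 (edgeR, adjusted p = 0.27).

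Among the genes called lower with Scn3a, the largest decreases were in Cdh5 (-1.43 ± 0.08), Cd9 (-0.95 ± 0.04), Igfbp7 (-0.88 ± 0.10), Lmo2 (-0.80 ± 0.03) and the bipolar cell gene Vsx1 (-0.67 ± 0.13). With Scn7a they were in Cdh5 (-1.79 ± 0.07), Igfbp7 (-1.24 ± 0.08), Cd9 (-1.13 ± 0.07), Lmo2 (-1.11 ± 0.08) and Mfge8 (-0.82 ± 0.06). With Scn9a they were in Cp (-0.48 ± 0.06), Igfbp5 (-0.41 ± 0.03), Rpgrip1 (-0.41 ± 0.07), Coch (-0.39 ± 0.04) and Spp1, or osteopontin (-0.38 ± 0.05). The 11 glial and vascular markers of the panel summed to 11.8 ± 1.2 per 1000 puncta in cells with Scn3a and 14.3 ± 1.4 in cells without it, at the same mix of types. For Scn7a the sums were 11.6 ± 1.3 and 15.3 ± 1.5 and for Scn9a 12.3 ± 1.2 and 15.3 ± 1.5, lower with the gene in 5 of 5 retinas each. All 6 Müller glia markers were called lower with Scn3a and with Scn7a, and 2 of the 3 tested with Scn9a. Left without the 10% of cells highest in these markers, a step added after the data were seen, the calls fell to 78 with Scn3a, 84 with Scn7a and 21 with Scn9a. The decreases of Cdh5, Igfbp7 and Lmo2 with Scn3a were then -0.14, -0.16 and -0.01 (limma, adjusted p = 0.31, 0.23 and 0.85), and those of Igfbp7 and Lmo2 with Scn7a turned to 0.02 and 0.03. Cdh5 is itself 1 of the 11 markers that set which cells were left out, so the step acts on its decrease directly. Slc17a8 with Scn3a (0.33), Gabrg3 with Scn7a (0.28) and Opn4 with Scn9a (0.49) remained called, as did Scn9a with Scn3a (0.11, adjusted p = 0.047).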

How the data were processed

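Xenium imaging of the retinas gave 1 deposited table with a row per cell. Per the file headers it holds puncta counts per cell, whole-number counts for 300 genes, used as deposited with no normalization, with the authors' type of each cell, a volume signal of unstated unit, and positions that the authors scaled to a unit circle, a score without unit. Segmentation, cell filters and type assignment are not given in the sources used here. The 4 deposited samples are pairs of slides that no label ties to a retina, so the retina named in the table was the replicate (n = 5).

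Counts were summed per retina and side or type. The main fit was the quasi-likelihood test of edgeR 4.0.16 (retina as block, TMM, filterByExpr) with DESeq2 1.42.0 as the alternative, in R 4.3.3, with a threshold of 0.05 after Benjamini-Hochberg adjustment over all genes or, within types, all type-gene pairs. Types needed at least 50 cells per side in each retina. limma 3.58.1 took 5 log2 differences per gene, as log2(puncta per 1000 + 0.01) with at least 20 cells per side and type for the same mix. For cells with and without a gene it needed at least 5 cells of each kind per type and 50 thinned puncta per gene. Cells were thinned to 100 puncta without replacement. Likeness and the spread over types used log2(puncta per 1000 + 0.1). Odds ratios over all cells had 0.5 added to each count. Those inside types were combined over types by the Mantel-Haenszel formula, with nothing added.

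Glial and vascular markers were the Müller glia, astrocyte, microglia, endothelium and pericyte genes. Named were the 3 genes, the 4 most and 3 least like genes of each, up to 5 called genes per direction with 1 direction in all retinas, the 6 highest and 6 lowest types, and types with a call. 03_FminiON and its called genes were chosen after their values were seen. The members and lists were chosen with earlier results of these data known. Some genes that this rule names are not reported here. Fits were tested on simulated data. Sums and figures were made in Python 3.11.15 with pandas 2.3.3, scipy 1.17.1, matplotlib 3.10.9 and numpy 2.4.6.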

Additional observations from a re-analysis of the deposited data

Results flagged for a closer look

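Of 77 sets of 5 retinas examined, 7 held a retina far from the other 4, where about 3.85 are to be had by chance (1 in 20). Retina 3 stood out for Scn3a in 42_AlphaOFFS, at 2.25 puncta per 1000 against a median of 1.60, and retina 5 for Scn3a in 45_AlphaOFFT, at 1.72 against 1.31. For Scn9a, retina 5 was low in 40_M1dup, at 1.74 against 2.83. Retina 2 was high for Scn9a in 07_Novel, at 2.86 against 2.31, and retina 3 in the alpha types, at 0.214 against 0.147. The log2 odds ratio of Scn7a with Scn9a inside types was 0.52 in retina 3 against a median of 0.19. The ratio of Scn3a in 11_Novel between the Opn1sw-poor and Opn1sw-rich sides was 0.987 in retina 3 against a median of 0.858. Retina 3 holds the fewest cells and is named in 4 of the 7.

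Along Y, Scn9a was higher at Y above 0 in the ooDS types by a mean log2 ratio of 0.24, in 5 of 5 retinas, and lower in the F types by -0.17, in 5 of 5 retinas. The difference between these families was not tested. It was the 1 opposite pair found on a search over all 3 genes, the 3 axes and the named families, and how many such pairs arise by chance was not worked out. Single families with 1 direction in all 5 retinas occurred elsewhere too, such as the alpha types for Scn9a along X (-0.51 ± 0.09). Y and X have no anatomical direction in the labels.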

How the results depend on the processing

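Scn3a turned from below to above 0 with the section or the slide as the block, to 0.020 and 0.0032 on the radial axis and 0.083 and 0.00062 along Y, none called. Along X, DESeq2 gave -0.12 for Scn3a and -0.14 for Scn9a, both called there, and no retina block gave -0.15 for Scn7a, not called. DESeq2 called Scn7a in 2 types radially and 2 along X, and gave 0.25, not called, in 23_W3D2.

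Leaving out each retina moved Scn3a between -0.047 and 0.029 radially, -0.055 and 0.0086 along Y, -0.14 and -0.079 along X, and -0.021 and 0.057 between the Opn1sw sides. Scn7a moved between -0.0045 and 0.067 radially, -0.18 and -0.12 along X, and -0.0082 and 0.069 between the sides. Scn9a moved between -0.079 and 0.078 radially (-0.035 to 0.065 at the same mix), -0.010 and 0.062 along Y at the same mix, and -0.10 and 0.0022 between the sides. Types called ranged from 0 to 1 for Scn7a radially and along Y and for Scn3a along Y, and from 0 to 2 for Scn7a along X. Between the sides, Scn3a ranged from 0.37 to 0.43 in 09_Tbr1_Novel and from -0.25 to -0.21 in 11_Novel, and Scn7a from 0.62 to 0.85 in 17_Tbr1_S1 and 0.21 to 0.29 in 23_W3D2. The odds ratio of Scn3a with Scn7a inside types ranged from -0.034 to 0.0030, and genes called with Scn9a from 35 to 45 against 61 in all retinas.

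Genes called with Scn3a fell to 92 at 2 puncta or more. With Scn7a they were 234 in cells as deposited and 87 at 2 puncta or more, and with Scn9a 186 in cells as deposited. At 2 puncta or more Scn9a left no gene to test. Without the cells highest in glial and vascular markers the calls were 78, 84 and 21, and Igfbp7 and Lmo2 with Scn7a turned to 0.016 and 0.031. Odds ratios over all cells as deposited were 0.31, 1.12 and 1.07 (Scn3a with Scn7a, Scn3a with Scn9a, Scn7a with Scn9a) and inside types 0.61, 0.88 and 0.64. At 2 puncta they were 0.98 (Scn3a with Scn9a) and 1.16 (Scn7a with Scn9a) over all cells and 0.50 (Scn3a with Scn9a) inside types. By share of thinned cells 29_Novel came 2nd for Scn3a, 45_AlphaOFFT 44th and, for Scn7a, 35_Novel 42nd; by share of cells as deposited 29_Novel came 3rd and 24_Novel 2nd, and by puncta per cell 45_AlphaOFFT came 43rd.

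Numbers do not pair samples here, since the retina is the block in each main fit, and fits without it are given above. Panel calls from centre to periphery were 20, against 63 in DESeq2, 42 by section, 39 split at the median, 1 with no retina block and 2 to 53 without 1 retina. Along X they were 30, against 60 in DESeq2, 1 with no block and 2 to 43 without 1 retina, and along Y 0, against 11 in DESeq2 and 41 by section. Scn9a gave a mean of 0.207 puncta per cell, the fewest of the 3 genes, and the effect of depth on calls within types was not tested.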
